A study of Rattus norvegicus with 24 samples.

Results

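Neurotrophins, their receptors and closely tied secreted factors were followed across rat brain after injury. The set held 8 genes: the secreted factors Bdnf, Ntf3, Gdnf and Vgf, and the receptors Ntrk2, Ntrk3, Ngfr and Sort1. A locus was taken as a member when its gene name in the annotation of the count table equalled 1 of these symbols. Each symbol matched exactly 1 locus, so the members were 8 of the 26641 named loci, and of the 42334 loci in all. The rule held no measured value, but the symbols were chosen with earlier results of these data known.

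The libraries came from polyA RNA of perilesional cortex and ipsilateral thalamus, taken 3 months after lateral fluid-percussion injury, a pressure pulse to the exposed dura, or after sham operation. All 12 rats were adult male Sprague-Dawley animals, 6 with traumatic brain injury (TBI) and 6 sham-operated controls, and each rat gave 1 cortical and 1 thalamic library, hence 4 groups of 6. Injury was the treatment compared, and the surgery without impact was shared by all. The study lists magnetic resonance imaging under isoflurane for the TBI rats only, so that may have differed as well. The TBI rats had been singled out by magnetic resonance imaging for a lasting inflammatory rim around the lesion, which limits them as a model of all injured rats.

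Depth ranged from 30568927 to 54608922 fragments per library. Tissue labels were checked against region markers. The summed level of 7 cortical excitatory neuron markers was 70049 to 75006 in sham cortex and 12928 to 21004 in sham thalamus, and the sum of 7 thalamic neuron markers was 2956 to 3512 and 79541 to 112902. Choroid plexus RNA set some libraries apart. The sum of 8 choroid plexus markers was 270141 in the thalamus of TBI rat 45 and 110711 in that of sham rat 50, against group medians of 1716 and 1362, and in the cortex it was highest in TBI rat 45, at 33668, and in sham rat 26, at 24411. Pericyte and fibroblast markers also peaked in rat 45, at 36760 in the thalamus. For several members, results are also given without rat 45 or rat 50. Pathway genes and marker sums are given with all libraries only.

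Neurotrophins are small secreted proteins that keep neurons alive and tune their synapses. They are made as larger precursors, cut to the mature form by proprotein convertases or outside the cell, and the mature forms act through Trk receptor tyrosine kinases, which feed the Ras-MAP kinase, PI3 kinase and phospholipase C pathways. The precursors prefer the p75 receptor paired with sortilin. BDNF is released from dense-core vesicles in an activity-dependent way, and its gene is a well-known target of the transcription factor CREB.

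CREB binds the cAMP response element, written TGACGTCA in full and TGACG in its short form. Promoter windows around each annotated start were taken from RefSeq on the GRCr8 build and matched by symbol for 5 of the 8 genes. Both strands were searched, a full element counting also as 2 short ones. The 3 stretches printed here are those of the members' windows that held either form. Capitals mark the element, CGTCA being the short form on the other strand, and each stretch reads 5′ to 3′ along the gene.
Bdnf, chr3:116637793-116637857, plus strand: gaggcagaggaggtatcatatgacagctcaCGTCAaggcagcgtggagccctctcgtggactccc
Gdnf, chr2:58621248-58621312, plus strand: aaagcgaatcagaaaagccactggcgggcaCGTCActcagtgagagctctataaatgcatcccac
Vgf, chr12:25277073-25277140, minus strand: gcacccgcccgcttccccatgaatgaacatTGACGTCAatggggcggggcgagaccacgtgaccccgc
The Vgf window held the full element, which 1.83% of the 33469 windows of the same length hold. The short form stood in 1 of the 6 Bdnf windows and in the single Gdnf window, and 21.2% of all windows hold it. The 3 Ntf3 windows and the Sort1 window held neither form. These are matches of letters in a window and say nothing of binding.

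Values are counts scaled between libraries by the authors, here called normalized counts. They were not divided by gene length, so levels are compared between groups and not between genes. Fold changes are on the log2(normalized count + 1) scale. A result was called when its adjusted p was under 0.05 in limma, with Benjamini-Hochberg adjustment over all loci tested. A named locus entered a test when its mean over the libraries compared was at least 10. Because these are bulk samples, fewer cells of a type and less RNA per cell cannot be told apart.

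**Figure D1:**
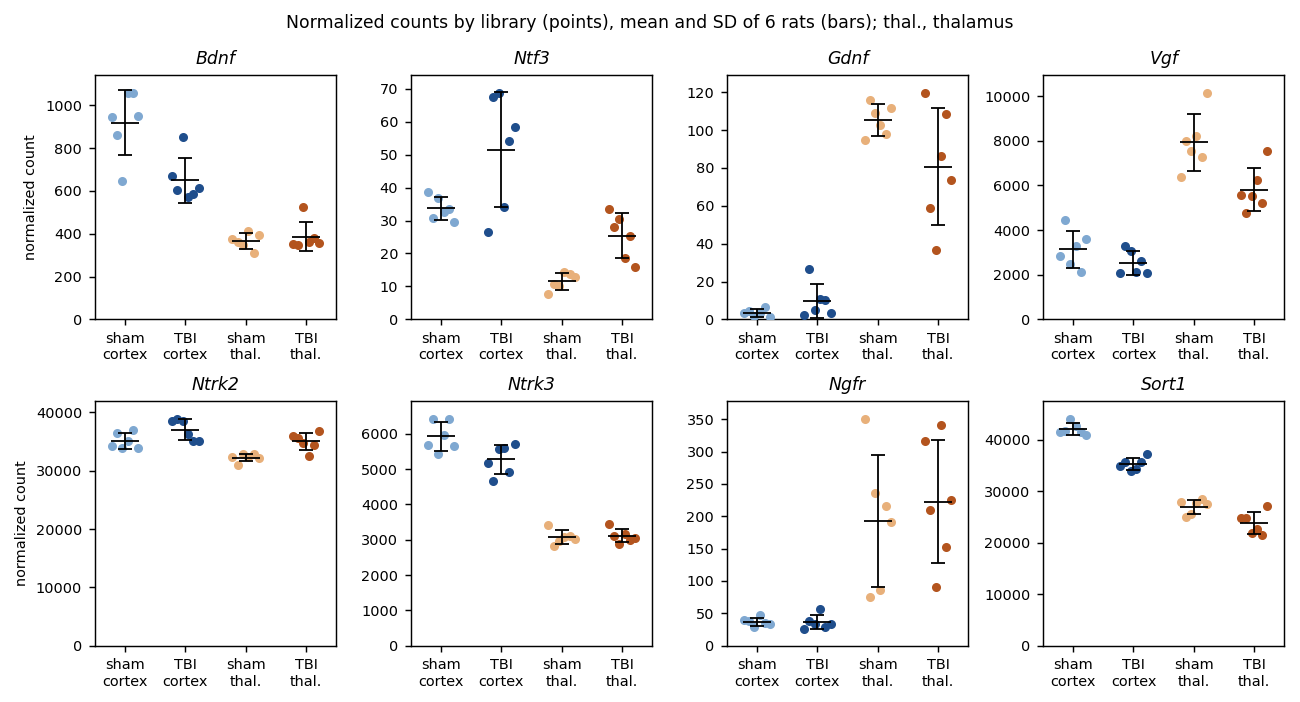
Normalized counts (vertical axis, linear, from 0) of the 8 genes in sham cortex, TBI cortex, sham thalamus and TBI thalamus. Each point is 1 rat, and the bars give the mean and SD of 6 rats. Sort1 in the cortex and Ntf3 in the thalamus separate TBI from sham completely, and in both tissues the highest Bdnf point of the TBI rats is rat 45.

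Among the ligands, Bdnf, which binds TrkB (chromosome 3, 107371366 to 107421914 in Rnor_5.0, the build named in the submitters' processing notes, although the study's methods name an older assembly for the genome and Rnor_5.0 for the transcripts, a doubt that holds for every locus position given), fell in the injured cortex, and no change was detectable in the thalamus. In sham cortex it ranged from 647 to 1059 normalized counts with a median of 946, and in TBI cortex from 569 to 854 with a median of 610. In 4 of 6 TBI rats Bdnf lay below every sham rat. The remaining TBI rats overlapped the single low sham rat, number 34. Means were 650 ± 106 and 919 ± 153 (SD, n = 6 each), a fall by 0.49 on the log2 scale (SE 0.12), with an adjusted p of 0.00680 in limma. Without the cortex of rat 45 the fall was by 0.58 (adjusted p in limma 0.00198), and the call held in all 22 alternatives.

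In the thalamus Bdnf ranged from 311 to 415 in sham rats, with a median of 368. In TBI rats it ranged from 350 to 524, with a median of 358. The groups overlapped almost entirely, and rat 45 stood alone at the top. The log2 fold change was 0.06, with a 95% interval of -0.16 to 0.29 and an adjusted p of 0.679 in limma. It became -0.03 without rat 45.

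Ntf3, which encodes neurotrophin-3, the main ligand of TrkC (chromosome 4, 225638801 to 225707718), rose in the injured thalamus. Sham thalamus held 7.64 to 14.5 normalized counts, median 11.7, and TBI thalamus 15.9 to 33.5, median 26.8. All 6 TBI rats lay above all 6 sham rats, as 7.46% of all loci tested did. The 8 to 14 fragments behind each sham value make these low counts. The mean was 25.4 ± 6.83 against 11.6 ± 2.59 (SD, n = 6 each), a log2 fold change of 1.05 (SE 0.24, adjusted p 0.00341 in limma). The call held in all 21 alternatives, and without rat 45 the change was 0.99 (adjusted p 0.00815 in limma).

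In the cortex Ntf3 ranged from 29.5 to 38.8 in sham rats, median 33.0. TBI rats ranged from 26.7 to 68.8, median 56.2. The injured rats were split: 4 lay above every sham rat, rat 22 below every sham rat and rat 52 among them. The log2 fold change was 0.53 (95% interval 0.06 to 0.99), and its adjusted p of 0.0819 in limma did not pass. Leaving out rat 22 raised it to 0.70 (adjusted p 0.0142 in limma), and leaving out rat 52 also brought it past the threshold (0.0491). Without rat 45 it was 0.43 (adjusted p 0.171 in limma) and without rat 24 it was 0.44 (0.165).

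Gdnf, the glial cell line-derived neurotrophic factor, acts through GFRα1 and RET rather than a Trk receptor (chromosome 2, 76897560 to 76922460). It was nearly absent from sham cortex, with 1.13 to 6.70 normalized counts, median 3.36, and 4 of 6 libraries at or under 3 fragments. TBI cortex held 2.42 to 26.6, median 7.76. Of the TBI rats, 3 lay above every sham rat and the others among them. Its mean of 6.62 over the 12 cortical libraries was under the minimum for limma. An exact two-sided permutation test of the log2 difference of 1.03 gave p = 0.0758, where the smallest possible p is 0.00216, and the difference was 0.69 to 1.29 with each library left out in turn.

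Thalamic Gdnf was far higher. In sham rats it ranged tightly from 94.5 to 116, median 106. In TBI rats it spread from 36.6 to 120, median 80.1, with rat 45 lowest and 4 of 6 rats below every sham rat. The coefficient of variation was 38.5% in TBI and 7.89% in sham thalamus. The log2 fold change was -0.48 (95% interval -0.97 to 0.02, adjusted p 0.126 in limma). It did not pass, was -0.27 without rat 45, and was called in 1 of 22 alternatives, without rat 22 (adjusted p 0.0497 in limma).

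Vgf encodes a neurotrophin-inducible precursor of neuropeptides, stored in dense-core vesicles (chromosome 12, 24689404 to 24697378). In sham thalamus it ranged from 6363 to 10159 normalized counts, median 7782, and in TBI thalamus from 4755 to 7530, median 5551. In 5 of 6 TBI rats it lay below every sham rat, and rat 63 overlapped. It fell by 0.45 on the log2 scale (SE 0.11, adjusted p 0.00720 in limma), and the call held in all 22 alternatives. In the cortex Vgf was 2127 to 4447 in sham and 2073 to 3269 in TBI rats. Those groups overlapped, with a log2 fold change of -0.29 (95% interval -0.64 to 0.06, adjusted p 0.195 in limma). It was -0.40 without sham rat 50 (adjusted p 0.0706) and -0.18 without sham rat 32 (0.382).

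**Figure D2:**
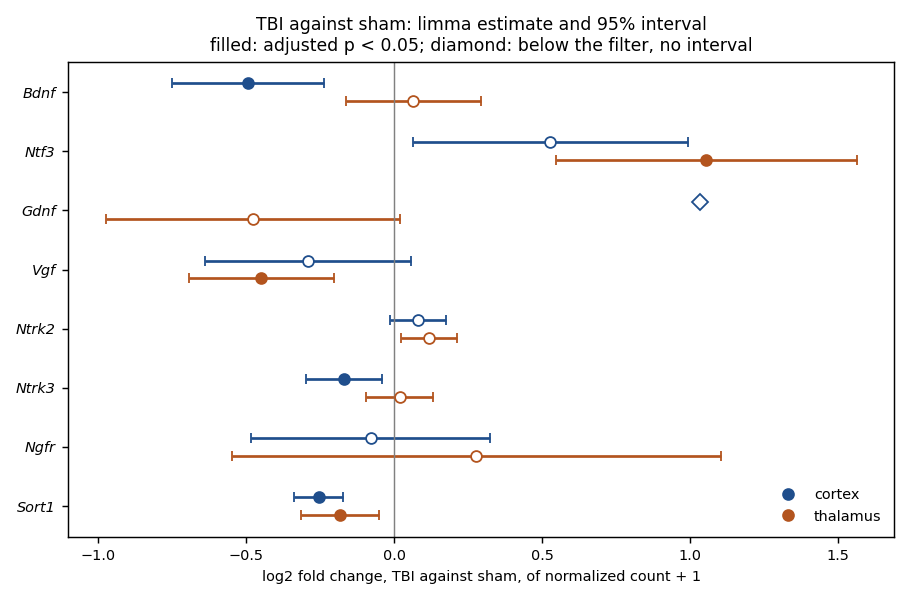
Log2 fold change of TBI against sham (horizontal axis) for the 8 genes, cortex in blue and thalamus in orange, with the 95% interval from limma. Filled circles passed an adjusted p of 0.05, open circles did not, and the diamond is cortical Gdnf, below the minimum and drawn without an interval. The filled points are Bdnf, Ntrk3 and Sort1 in the cortex and Ntf3, Vgf and Sort1 in the thalamus.

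Among the receptors, Sort1 had the lowest adjusted p between TBI and sham cortex. It encodes sortilin, which sorts neurotrophin precursors and pairs with p75 (chromosome 2, 230544287 to 230643000). Sham cortex held 40942 to 44057 normalized counts, median 41649, and TBI cortex 33916 to 37188, median 35241. No TBI rat reached the lowest sham rat, a pattern that 5.45% of loci tested showed in this direction. Sort1 fell by 0.26 on the log2 scale (SE 0.039, adjusted p 0.000283 in limma), and the call held in all 22 alternatives.

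In the thalamus Sort1 was 24916 to 28451 in sham and 21598 to 27067 in TBI rats, and 5 of 6 TBI rats lay below every sham rat. It fell by 0.18 (SE 0.062, adjusted p 0.0323 in limma). This call was lost in 9 of 22 alternatives, among them without rat 45 (adjusted p 0.0603 in limma), without sham rat 50 (0.0722) and with upper quartile scaling (0.127). The other libraries whose absence lost it were TBI rats 52 and 56 and sham rats 26, 38 and 55. The data also hold 3 loci that overlap Sort1. Those named Mybphl had means of 2.46 and 0.999 normalized counts, and an unnamed locus had 50.1. Reads in the overlap may not be told apart.

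Ntrk3 encodes TrkC, the receptor of neurotrophin-3 (chromosome 1, 140851797 to 141239954). In the cortex it ranged from 5442 to 6421 normalized counts in sham and from 4675 to 5707 in TBI rats, with 3 of 6 TBI rats below every sham rat. It fell by 0.17 (SE 0.060, adjusted p 0.0462 in limma), the smallest of the calls, and 12 of 22 alternatives lost it, among them TMM scaling (0.0578) and 7 of the 12 that left out a single library. The 7 libraries are TBI rats 22, 24 and 56 and sham rats 26, 32, 38 and 50. In the thalamus, Ntrk3 was 2835 to 3420 in sham and 2886 to 3433 in TBI rats, and the groups overlapped almost entirely. The log2 fold change was 0.02, with a 95% interval of -0.10 to 0.13.

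Ntrk2 encodes TrkB, the receptor of BDNF; the locus joins the full-length kinase form and the truncated form that astrocytes express (chromosome 17, 8144581 to 8465607). In the thalamus it was 31008 to 32830 in sham and 32593 to 36801 in TBI rats, and 5 of 6 TBI rats lay above every sham rat. The log2 fold change of 0.12 (95% interval 0.02 to 0.21) had an adjusted p of 0.0520 in limma and did not pass. It passed in 5 of 22 alternatives, with 0.00702 under upper quartile scaling and 0.0295 without TBI rat 52. In the cortex it was 33837 to 36924 in sham and 35048 to 38877 in TBI rats, with a log2 fold change of 0.08 (95% interval -0.02 to 0.17).

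Ngfr encodes p75, the low-affinity receptor shared by all neurotrophins (chromosome 10, 83198414 to 83216629). It varied widely between rats of the same group, with a coefficient of variation of 53.2% in sham thalamus. In the thalamus it ranged from 75.4 to 350 in sham and from 91.4 to 341 in TBI rats, with no separation at all. The log2 fold change was 0.28, and its 95% interval of -0.55 to 1.10 would hold a fall of the size seen for Vgf as well as a rise of the size seen for Ntf3. It was 0.51 without TBI rat 45, 0.49 without sham rat 26, 0.35 without sham rat 50 and 0.05 without sham rat 32. In the cortex the medians were 36.7 in sham and 33.2 in TBI rats, with a log2 fold change of -0.08 (95% interval -0.48 to 0.32).

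Counted together, 3 of the 7 members tested in the cortex were called, all lower, and 29.2% of all 15493 loci were called there. Of the members, 0 were called higher by limma or by edgeR on recovered fragments, and 1 (Ntf3) was higher at an unadjusted p under 0.05. By edgeR 2 were lower, since Ntrk3 did not pass (adjusted p 0.0511 in edgeR). In the thalamus 3 of 8 were called, 1 higher and 2 lower, against 35.4% of 15564 loci. With so few members, neither count is set apart from the share of all loci. Members had a median log2 fold change of -0.17 in the cortex and 0.04 in the thalamus, beside -0.01 and -0.02 over all loci tested.

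Markers of other cell types moved with injury in the same libraries. Of 15 neuronal markers, 11 fell in the cortex (median -0.28) and 13 in the thalamus (median -0.45), and their summed level did not overlap: 389024 to 487879 in TBI against 524119 to 554710 in sham cortex, and 285559 to 364764 against 428366 to 508707 in the thalamus. Of 14 microglial markers, 13 rose in the cortex and 14 in the thalamus. Of 9 astrocyte markers, 5 rose in each tissue and 2 fell in the cortex. Of 8 pericyte and fibroblast markers, 6 rose in the cortex (median 0.81) and 3 in the thalamus (median 0.45). Oligodendrocyte precursor markers rose in 4 of 7 cases in the cortex, and endothelial markers in 4 of 8 in the thalamus. In the thalamus 1 of 7 precursor markers rose, and in the cortex 1 of 8 endothelial markers. Both are near the share of all loci that rose. Of 7 oligodendrocyte markers, 2 rose in the cortex and 1 in the thalamus. Of 6 thalamic neuron markers tested in the cortex, 2 rose and 1 fell, and 4 of 7 fell in the thalamus. No choroid plexus marker was called in either tissue by limma or edgeR. The part of these cell types in the changes of Bdnf, Sort1, Vgf, Ntf3 and Ntrk3 was not tested.

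Between the tissues of sham rats, all 8 were called, where 62.2% of 15582 loci were called. Of these, 3 were higher in the thalamus and 5 lower, beside 33.9% and 28.3% of loci. None of the 8 overlapped between tissues, and 23.9% of loci lay wholly above and 19.2% wholly below. Gdnf met the minimum only through the thalamus, where it is high, and so had to differ. Without it the counts were 7 of 7, with 2 higher and 5 lower. Gdnf rested on 600 thalamic and 20 cortical fragments over 6 rats each. That is a ratio of 30.4 (95% exact interval 19.5 to 50.1, counting error only), and the limma estimate of 4.69 moved between 3.73 and 5.09 with the pseudocount and the other alternatives. Ngfr was higher in the thalamus by 2.16 on the log2 scale (SE 0.31, adjusted p 1.81e-05 in limma) and Vgf by 1.37 (SE 0.15, adjusted p 9.70e-07).

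On the cortical side, Ntf3 was lower in the thalamus, with a log2 difference of -1.49 (SE 0.19), Bdnf with -1.31 (SE 0.11), Ntrk3 with -0.95 (SE 0.054), Sort1 with -0.64 (SE 0.042) and Ntrk2 with -0.12 (SE 0.038, adjusted p 0.0122 in limma). As for ligands and their receptors, neurotrophin-3 and TrkC mRNA were both lower in the thalamus, whereas BDNF mRNA was 2.48-fold lower while TrkB mRNA was only 1.09-fold lower. Markers of many cell types differed as well. All 7 oligodendrocyte markers tested were higher in sham thalamus, beside 33.9% of all loci, with a median log2 difference of 1.55. So were 7 of 7 thalamic neuron, 6 of 7 oligodendrocyte precursor and 8 of 14 microglial markers. Lower were 6 of 7 cortical excitatory neuron, 5 of 8 endothelial and 6 of 8 pericyte and fibroblast markers, with 1 of the last higher, beside 28.3% of loci. Neuronal and astrocyte markers went both ways. The part of these cell types in the differences was not tested.

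**Figure D3:**
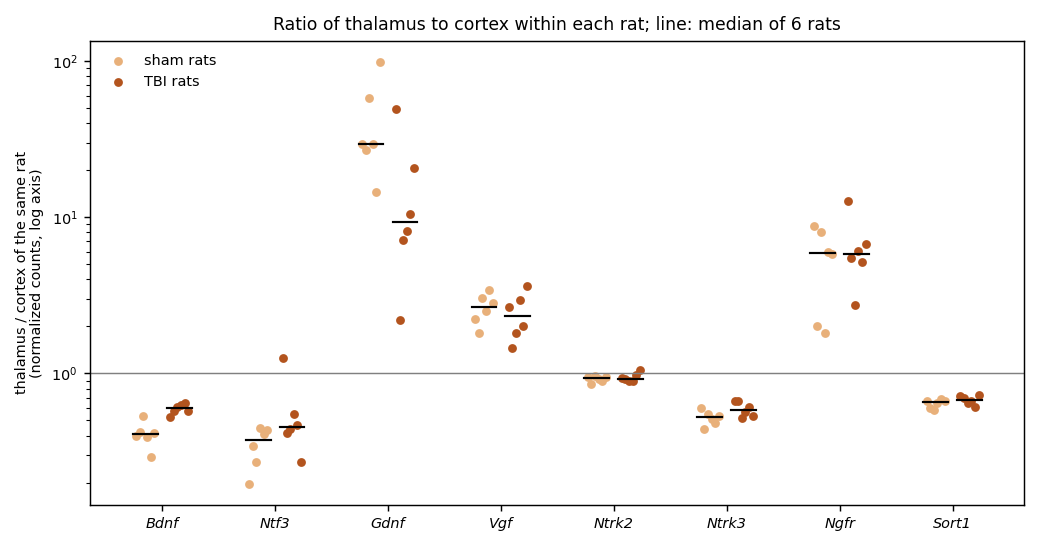
Ratio of the thalamic to the cortical normalized count within each rat (vertical axis, log scale) for the 8 genes, sham rats light and TBI rats dark, with the median of 6 rats as a line. Gdnf, Vgf and Ngfr lie above 1 in all 12 rats, the Gdnf ratios of sham rats resting on 1 to 6 cortical fragments each, and the TBI rats' Bdnf ratios sit between 0.525 and 0.646, above 5 of the 6 sham ratios.

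For Bdnf the gap between tissues was smaller in TBI rats. In sham rats the thalamic level was 0.294 to 0.536 of the cortical level of the same rat, median 0.407. In TBI rats it was 0.525 to 0.646, median 0.597. The ranges met only at sham rat 34, whose cortical value was the low one named above. The injury effect was higher in the thalamus than in the cortex by 0.56 on the log2 scale (SE 0.17, adjusted p 0.0428 in limma), when 7.26% of 15678 loci were called, 2.72% higher and 4.54% lower. With the rat as a block the adjusted p was 0.00919 and without both libraries of rat 45 it was 0.0176, but 18 of 35 alternatives lost the call, with adjusted p up to 0.0804 in limma. They include leaving out TBI rats 24, 52, 56 or 63 or sham rats 26, 38, 50 or 55 in the cortex, and TBI rats 45 or 56 or sham rats 26, 32, 34, 50 or 55 in the thalamus.

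The other 7 members gave no called difference between tissues in the injury effect. Gdnf passed the minimum here only through the thalamus, and its sham cortical values rest on 1 to 6 fragments per rat, so its estimate of -1.51 (SE 0.55, adjusted p 0.0933 in limma) is not read further. Summed over 6 rats, the thalamic to cortical ratio of Gdnf was 8.29 in TBI rats (95% exact interval 6.43 to 10.8, counting error only), beside the 30.4 of sham rats. Such an interval takes fragments and not rats as the unit, and rat 24 alone gave 32 of the 68 TBI cortical fragments. Per rat the Gdnf ratio ran from 14.6 to 98.6 in sham and from 2.21 to 49.4 in TBI rats, so the groups overlapped. The Ntf3 ratio ran from 0.197 to 0.447 in sham and from 0.272 to 1.26 in TBI rats, where rat 22 alone had more in the thalamus. Its effect difference was 0.53 (95% interval -0.13 to 1.18). For Sort1 the interval was -0.07 to 0.22, so a difference between tissues of the size of its cortical fall was outside it.

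The wider pathway was described from lists, whose counts stand against the share of all loci called: 14.3% higher and 14.9% lower in the cortex, 14.5% higher and 20.9% lower in the thalamus. Of the other neurotrophins and co-receptors, 2 rose and 3 fell of 9 tested in the cortex, and 2 rose and 5 fell of 10 in the thalamus (medians -0.16 and -0.06). Nradd, a p75-related receptor, rose in both, from 62.2 ± 10.8 to 90.7 ± 12.2 in the cortex and from 55.3 ± 15.1 to 106 ± 13.4 in the thalamus (SD, n = 6 each). Its log2 fold changes were 0.55 (adjusted p 0.0101) and 0.96 (adjusted p 0.000485, both limma). Tnfrsf19, another receptor of the same superfamily, also rose, by 0.25 and 0.36. For both genes every TBI rat lay above every sham rat in each tissue, but such separation was a condition for being named.

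Of the sortilin relatives, Sorl1 fell by 0.39 in the cortex (adjusted p 7.90e-05 in limma) while its thalamic value of 0.19 did not pass, and the effects differed by 0.58 (adjusted p 0.000632 in limma). Sorcs3 fell by 0.62 in the thalamus (adjusted p 0.000281 in limma), its cortical value of -0.16 did not pass, and the effects differed by -0.46 (adjusted p 0.0266). Sorcs1 fell by 0.19 in the cortex, with 0.13 in the thalamus, and Sorcs2 fell by 0.18 and 0.25; both were picked after their values were seen. Lingo1, a partner of p75 in the Nogo receptor complex, fell by 0.50 in the thalamus.

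Of 41 Trk signalling genes, 6 rose and 8 fell in the cortex and 6 rose and 13 fell in the thalamus, with medians of -0.04 and -0.10. Over all loci 29.2% were called in the cortex and 35.4% in the thalamus, and these counts are not read as set apart from them. Shc1, an adaptor of Trk receptors, rose in both tissues, by log2 fold changes of 0.60 and 0.70. Mapk3, which encodes ERK1, rose by 0.45 in the cortex. Camk4, a kinase that phosphorylates CREB in neurons, fell by 0.54 and 0.64. Shc2, the neuronal adaptor, fell by 0.56 in the thalamus. The absence of overlap between rats was a condition for being named.

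Of 21 genes of p75 signalling, 4 rose and 3 fell in the cortex and 6 rose and 1 fell in the thalamus (medians 0.02 and 0.03), beside the same 29.2% and 35.4% of all loci called. Rela, a subunit of NF-κB, rose by 0.39 in the cortex and 0.26 in the thalamus, and Mapk9, which encodes a JNK kinase, fell by 0.32 and 0.34. Adam17, a protease that sheds p75, rose by 0.24 in the cortex.

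Genes of precursor processing and release numbered 17 tested in the cortex, with 2 up and 6 down, and 15 in the thalamus, with 5 up and 2 down (medians 0.00 and 0.06), where 14.3% and 14.5% of all loci were higher and 14.9% and 20.9% lower. Cadps and Cadps2, which prime dense-core vesicles for release, both fell in the cortex, by 0.28 and 0.55. In the thalamus Cadps fell by 0.55. Cadps2, picked after its values were seen, had a log2 fold change of 0.55 there (adjusted p 0.0486 in limma), and its effects differed between tissues by 1.11 (adjusted p 0.00438). The convertase gene Pcsk2 fell by 0.41 in the thalamus, Pcsk6 rose by 0.49 in the cortex, and Plat, which encodes tissue plasminogen activator, an activator of the extracellular protease that cuts proBDNF, rose by 0.53 in the thalamus.

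The granins and dense-core vesicle genes, to which Vgf is related, had 4 of 8 genes lower in the cortex and 4 lower and 1 higher in the thalamus, with medians of -0.20 and -0.29, where 14.9% and 20.9% of all loci were lower. In the cortex 0 were higher by limma, at an unadjusted p under 0.05 or by edgeR. Chga, which encodes chromogranin A, fell by 0.74 in the thalamus, from 5295 ± 305 to 3209 ± 511 normalized counts (SD, n = 6 each, adjusted p 3.82e-05 in limma). Scg2, which encodes secretogranin II, rose there by 0.28, and Ptprn2, a vesicle membrane protein, fell by 0.21 in the cortex and 0.31 in the thalamus.

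In the GDNF family 1 of 6 genes tested fell in the cortex, and 1 rose and 2 fell of 6 in the thalamus (medians 0.07 and 0.04), beside 29.2% and 35.4% of all loci called. In the cortex 0 rose by limma, at an unadjusted p under 0.05 or by edgeR. Gfra2, the co-receptor of neurturin, fell by 0.35 in the cortex and 0.52 in the thalamus. Ncam1, an alternative GDNF receptor whose locus is joined to an unnamed gene, rose by 0.23 in the thalamus. Gfra1, the co-receptor of GDNF itself, was picked after its values were seen. It was higher in sham thalamus than in sham cortex by 1.88 (SE 0.13), the direction of Gdnf, and its injury effects were 0.24 and 0.05, neither past the threshold.

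Of 18 activity-regulated genes, the class to which Bdnf belongs, 6 fell in the cortex and 0 rose by limma, at an unadjusted p under 0.05 or by edgeR. In the thalamus 5 were lower and 1 higher. Medians were -0.42 and -0.34, and 14.9% and 20.9% of all loci were lower. Arc, a synaptic immediate early gene, fell by 1.24 in the thalamus (adjusted p 0.000112 in limma), from 705 ± 182 to 298 ± 67.1 normalized counts (SD, n = 6 each). It had no overlap, which naming required. The gene counted as higher was Egr2, picked after its values were seen. Its sham mean of 9.06 was under the minimum, so it entered the test only through the TBI mean of 23.9. In sham rats 15 of the 18 were lower in the thalamus than in the cortex, with a median of -2.27, beside 28.3% of all loci, and Bdnf shared that direction.

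**Figure D4:**
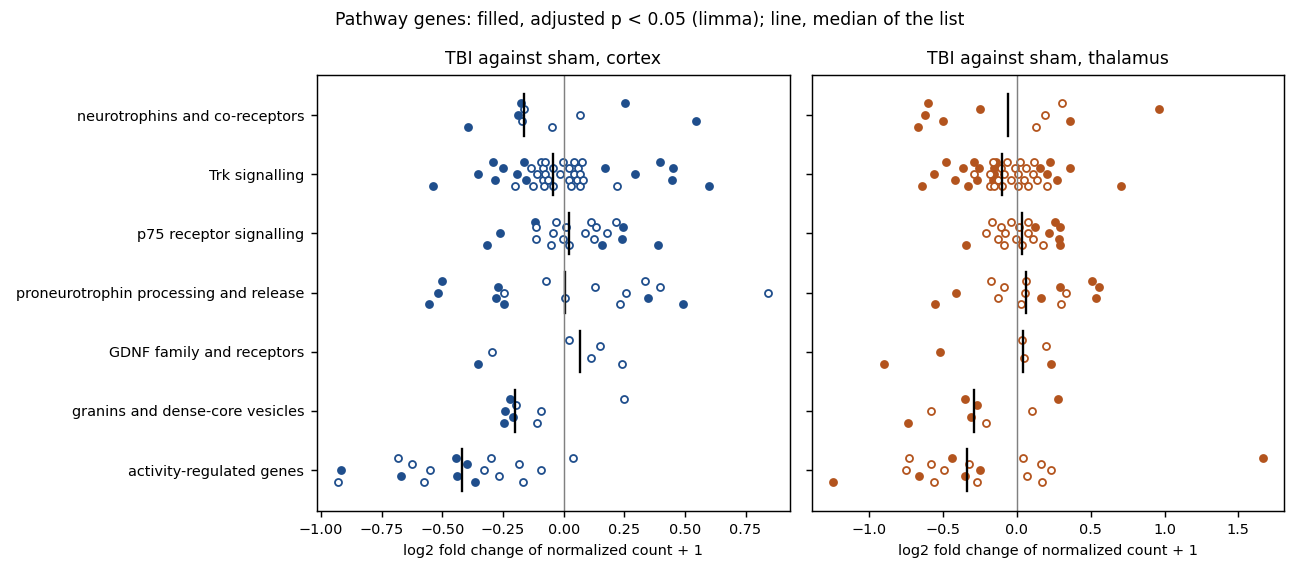
Log2 fold change of TBI against sham (horizontal axes) for each gene of 7 pathway lists in the cortex (left) and the thalamus (right). Filled points passed an adjusted p of 0.05 in limma, and the black line is the median of the list, lowest for the activity-regulated genes at -0.42 and -0.34.

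Genes whose profile over the 24 libraries came closest to each member were found from 15677 loci, by the root mean square difference of centred log2 values. Lrrtm4, a synaptic adhesion gene, lay nearest to Bdnf (0.204, where the spread of Bdnf itself was 0.579), followed by Lrrc8c and Otud1. Abcb1b, Arhgap25 and Scara3 lay nearest to Ntf3, the first at 0.370, and Igsf21, CACNA1G and Fam20c to Vgf, the first at 0.188. The spreads of Ntf3 and Vgf were 0.818 and 0.722. Asb1 came nearest to Sort1 (0.0692) and Rapgef2 to Ntrk3 (0.0802), whose own spreads were 0.331 and 0.441. Secisbp2 came nearest to Ntrk2, but its distance of 0.0710 was close to the spread of Ntrk2, 0.0876. For Ngfr and Gdnf the nearest loci, Ass1 and Cngb1, were 0.531 and 0.583 away.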

How the data were processed

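Poly(A) RNA from pooled pieces of each region per rat was sequenced by the authors with a stranded kit. Per the labels, reads were processed with TopHat2 2.0.11, Bowtie2 2.2.2 and Cufflinks 2.2.1 on Rnor_5.0; whether counting used strand is not given in the sources used here. The deposited values are a scaled signal: fragment counts per locus divided by a library factor and not corrected for length. At least 99.97% of values came back as whole fragments (within 0.1) once the factor was undone. Loci without a gene name, 1.90% to 2.23% of a library, were left out of the tests.

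log2(value + 1) was tested with limma 3.58.1 (R 4.3.3, mean trend), loci with a mean of at least 10, separately per contrast and over 24 libraries for the difference between tissues. edgeR 4.0.16 on recovered fragments and leaving out each library were alternatives, as was the rat as a block. Libraries of the same rat pair by label. Deviations of a rat's libraries correlated with a median r of 0.187 (0.00393 to 0.569, over 0.1 in 10 of 12 rats), against -0.0332 between rats. The limma and edgeR fits were tested on simulated data. There the variation between rats was set alike for every locus, with no link between libraries of a rat. It thus does not cover members that vary widely, such as Ngfr. From each list at most 2 risers and 2 fallers without overlap were named, and some are not reported here. Members and lists were chosen with earlier results of these data known.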

Additional observations from a re-analysis of the deposited data

Results flagged for a closer look

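In each group of 6 rats the highest and lowest value of each member were compared with the nearest other value. Of 32 groups, 4 held a value that stood apart, and chance alone would set apart about 1 in 20. Bdnf in TBI rat 45 stood apart in both tissues, at 854 normalized counts in the cortex and 524 in the thalamus. The same libraries had the most choroid plexus marker RNA of their groups, 33668 and 270141, and the most pericyte and fibroblast marker RNA, 35663 and 36760. Their part in the Bdnf values was not tested. Ntrk2 was low in the thalamus of sham rat 32, at 31008. Gdnf was high in the cortex of TBI rat 24, at 26.6. The injury effect on Bdnf, described above, differed between tissues, higher in the thalamus by 0.56 on the log2 scale (adjusted p 0.0428 in limma). That call was lost in 18 of 35 alternatives.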

How the results depend on the processing

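Bdnf and Sort1 in the cortex, Ntf3 and Vgf in the thalamus kept their direction and call in every alternative run, as did 7 of the 8 members between tissues in sham rats; Ntrk2 was lost there at a threshold of 0.01. At that threshold 2436 loci were called in the cortex, 3429 in the thalamus and 404 for the difference in injury effect. No member was called for that difference without a filter, with limma-voom (Bdnf adjusted p 0.0560) or at 0.01: 0 in each case, though 3 had an unadjusted p under 0.05 in the reported limma fit and edgeR called 1. edgeR on recovered fragments called 4533 loci in the cortex, 5481 in the thalamus, 9687 between tissues and 1179 for the difference. With each library left out, members called numbered 2 to 4 in each tissue, 8 between tissues and 0 to 2 for the difference; loci called ranged over 3671 to 5219, 4522 to 5442, 9333 to 9670 and 813 to 1329. Values that turned sign were Ngfr in the cortex without TBI rat 22 (range with each library left out -0.22 to 0.011), Bdnf in the thalamus without TBI rat 45 (-0.026 to 0.10) and Ntrk3 in the thalamus without TBI rat 22 or sham rat 32 (-0.011 to 0.049). With upper quartile scaling the share of calls that were lower went from 50.9% to 39.4% in the cortex, from 59.0% to 42.3% in the thalamus and from 62.5% to 52.1% for the difference. The replicate block by rat gave 1301 loci called for the difference and 9810 between tissues and changed no call of a member. Summing the loci of a name was not run, since each had 1. The causes of these shifts were not tested.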
